A study of Drosophila melanogaster with 8 samples.

Results

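The nuclear-encoded subunits of the respiratory chain and of ATP synthase were followed in pupal retinas that carry the sev[14] allele and in control retinas. The genes were chosen by name: every gene whose current symbol begins with ND-, ATPsyn, COX, UQCR or Sdh, which takes in the paralogs ND-51L1 and ATPsynepsilonL. They came to 83 of the 15127 genes in the deposited table. By their place in the complexes, 63 are main subunits, 19 are paralogs of a main subunit and 1, Sdhaf3, is an assembly factor of complex II. The main subunits comprise 34 of complex I, 4 of complex II, 6 of complex III, 8 of complex IV and 11 of ATP synthase. The table lists 80 of the 83 genes under an older symbol, and the rule applied to the deposited symbols finds only 10, so all were matched through their FlyBase gene identifiers. A further 5 genes with such names (ATPsynGL, COX6CL, ND-24L, UQCR-14L and UQCR-6.4L) were not analysed here.

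Polyadenylated RNA was sequenced from retinas of female Drosophila melanogaster pupae at 40 h after puparium formation, from 10 to 20 retinas that were dissected per genotype, by the labels' account. The w[*] sev[14] stock, in which the w allele is not specified, gave 4 libraries (S1, S2, S4 and S5), and the w[1118] control stock gave 4 (W1, W2, W5 and W6). The gene sev encodes the receptor tyrosine kinase that an R7 photoreceptor precursor needs, and the series is titled for transcription that depends on R7. The stocks also differ at w, and what belongs to sev and what to the rest of the stock cannot be told apart. The gene w had 4506 to 7153 normalized counts in the sev14 libraries, against 5.60 to 14.4 in the control libraries. The sev transcript itself had 119 to 416 normalized counts in the sev14 libraries, against 222 to 350 in the control libraries, and its level is no check of the allele.

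Complexes I to IV pass electrons from NADH and succinate to oxygen in the inner mitochondrial membrane, and complexes I, III and IV pump protons as they do so. ATP synthase, also called complex V, lets the protons flow back and makes ATP. A few subunits are made from the mitochondrial genome, while all the genes described here are in the nucleus, and complex II is built from nuclear genes alone. Photoreceptors are known for a high demand for ATP. In Drosophila, many duplicates of nuclear genes for mitochondrial proteins are known for expression in the testis.

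The deposited values are normalized counts, and dividing them by the value of 1 read in each library recovered totals of 13755813 to 19317307 reads. Reads of 9 ribosomal RNA pseudogenes took 12.5% of S2 and 10.1% of S5, against 0.528% to 3.67% of the other 6 libraries. All 12 markers of retinal cells passed the minimum mean used for testing, and their summed level was 35687 to 54017 normalized counts in sev14 and 33944 to 42217 in control retinas. Much of that sum was chp, at 15309 to 34176 in sev14 and 8873 to 19477 in control retinas, and 10 of the 12 markers had negative log2 differences (median -0.15), with wrapper called lower (-0.76, limma adjusted p = 0.0146). Summed markers of fat body (26114 to 76258 against 18439 to 46153), trachea (3170 to 10613 against 1799 to 4376) and muscle (7260 to 19048 against 4370 to 43768) differed between libraries of the same genotype. So did those of optic lobe and brain neurons (5051 to 12346 against 5462 to 10871) and of haemocytes (3148 to 10212 against 4751 to 8745). Between genotypes, the median log2 difference was 0.64 for 9 tested fat body markers (6 above 0 and 3 below), with Lsp1alpha called higher. For 6 tracheal markers it was 1.61, with 5 above 0 and 1, pio, below at -1.27. For 12 muscle markers it was -0.40, with 9 below 0 and 3 above. For 12 neuron markers it was -0.29, with 8 below 0 and 4 above, and for 5 tested haemocyte markers 0.34, with 3 above 0 and 2 below. No tracheal, muscle, neuron or haemocyte marker was called. In bulk RNA, fewer cells of a type and less RNA per cell cannot be told apart. The labels do not say whether libraries were made from separate animals, so the spread behind each p-value is that of the libraries and may be technical.

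The main subunits were among the strongly expressed genes of the retina. Levels between genes are given as normalized counts per kb of annotated exon. The median main subunit stood at 1660 per kb in sev14 and 1819 per kb in control retinas. In a ranking of all tested genes of known length, 48 of the 63 main subunits lay at or above the 90th percentile, and the median main subunit lay at percentile 93.7. The summed main subunits made up 0.901% ± 0.124 of all normalized counts in sev14 retinas and 1.03% ± 0.0907 in control retinas (SD, n = 4 each). All normalized counts include the ribosomal RNA pseudogenes, which took the most in S2 and S5, and the lowest shares were there (0.807% and 0.784%). S1 and S4 stood at 1.03% and 0.985%, within the 0.921% to 1.13% of the control libraries.

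**Figure D1:**
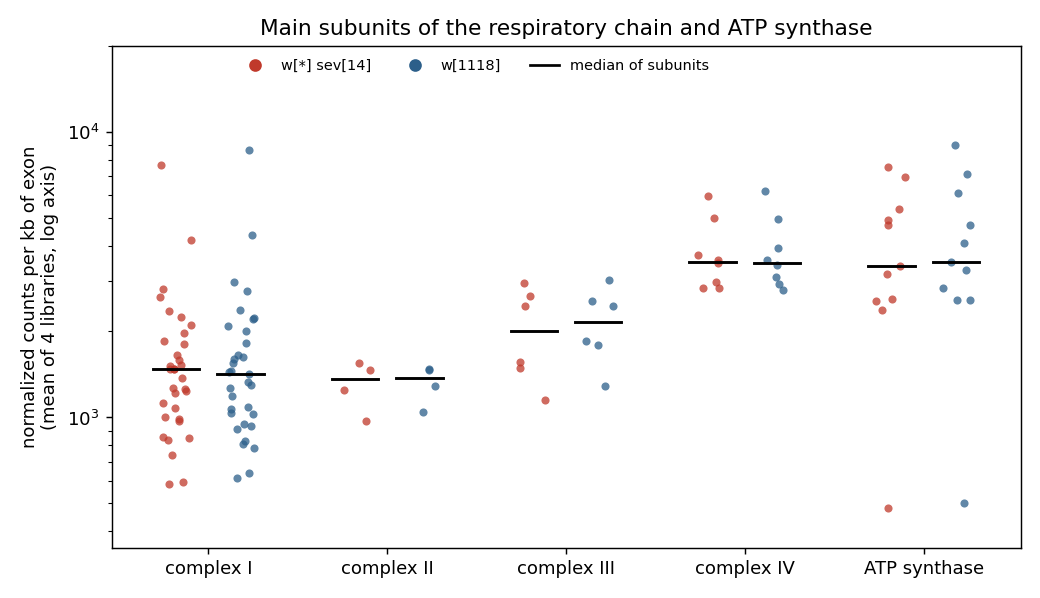
Level of each main subunit, as normalized counts per kb of annotated exon on a log axis, by complex. Each point is the mean of 4 libraries, with w[*] sev[14] left of w[1118] and bars at the median subunit; ND-B8, near 0, is not drawn. Medians of complex IV (3510 and 3488) and ATP synthase (3400 and 3500) lie above that of complex I (1478 and 1418).

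In both genotypes the median level per kb was highest in complex IV and ATP synthase, lower in complex III and lowest in complexes I and II. Median subunits of complex IV stood at 3510 per kb in sev14 and 3488 in control retinas, and those of ATP synthase at 3400 and 3500. Complex III followed at 2011 in sev14 and 2159 in control retinas. Median subunits of complexes I and II were lower, at 1428 and 1358 per kb in sev14 and 1374 and 1377 in control retinas. Per kb of the shortest annotated transcript and without ND-B8, the medians fell into the same 3 tiers: 5034 and 4315 for complex IV and ATP synthase, 2678 for complex III, and 1622 and 1404 for complexes I and II in sev14, against 5005 and 4455, 3024, and 1672 and 1385 in control retinas.

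Within complex I, ND-MLRQ was highest. This small subunit, whose mammalian counterpart is now placed in complex IV, had 7674 ± 2824 normalized counts per kb in sev14 and 8670 ± 3192 in control retinas (SD, n = 4 each). At the other end stood ND-B8 (2L 4454626 to 4455207), an accessory subunit, with 4 reads in S1, 2 reads in W2 and none in the other 6 libraries. Of its 460 exon bases, 71 are shared with Gs1l on the opposite strand, and the part of read assignment in its low count was not tested. ND-B8 was the only main subunit that did not pass the minimum mean of 5 normalized counts. The next lowest, ND-ASHI, had 586 per kb in sev14 and 616 in control retinas. By the shortest transcript ND-MLRQ was still highest, but ND-13B, at 834 and 1072 per kb, was the lowest after ND-B8. Leaving ND-B8 aside, subunits of this complex spanned 13.1-fold in sev14 and 14.1-fold in control retinas.

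Subunits of complex II spanned a narrow range, 1.61-fold in sev14 and 1.41-fold in control retinas. SdhD, a membrane anchor, was highest at 1556 per kb in sev14 and 1478 in control retinas. SdhA, the flavoprotein that oxidises succinate, was lowest at 969 and 1046. By the shortest transcript SdhA was still lowest, at 1018 per kb in sev14 and 1100.0 in control retinas, while the other anchor, SdhC, was highest at 2024 and 2021. In complex III, the core protein UQCR-C1 was highest with 2968 ± 208 per kb in sev14 and 3026 ± 250 in control retinas (SD, n = 4 each), and the small subunit UQCR-Q was lowest with 1154 and 1286. By the shortest transcript both ends changed, to UQCR-11 (6059 and 7211) and UQCR-14 (2658 and 2550). In complex IV the small subunit COX7B led with 5954 and 6188 per kb, and COX4 was lowest with 2838 and 2802. By the shortest transcript these ends also changed, to COX5A (6284 and 6219) and COX5B (3635 and 3751). The orders within complexes II, III and IV thus depended on the length used, and none was tested.

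ATPsynC, the c subunit whose copies form the turning ring of ATP synthase, had 7530 ± 1114 normalized counts per kb in sev14 and 9013 ± 1347 in control retinas (SD, n = 4 each). ATPsynbeta, the catalytic subunit, stood at 6936 ± 707 and 7109 ± 568. The lowest was ATPsyndelta, of the central stalk, at 481 and 501 per kb over 3817 bases of annotated exon. Its shortest annotated transcript is 666 bases long. Counted per kb of the shortest transcript, ATPsyndelta was still the lowest of the complex but stood at 2757 in sev14 and 2874 in control retinas, so its low place among all subunits depended on the length used.

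None of the 69 genes that passed the minimum mean was called higher or lower in sev14 retinas at an adjusted p of 0.05 (limma on log2(normalized count + 1), Benjamini-Hochberg over 10192 genes). The same test called 2.38% of all tested genes higher and 1.82% lower. At an unadjusted p of 0.05, 2 of the 69 were higher (ND-15 and ND-51L1) and 0 were lower, beside 9.12% and 7.54% of all tested genes. edgeR's quasi-likelihood test on the recovered reads also called 0 of them, and called 2.24% of all tested genes higher and 1.53% lower. DESeq2 on the recovered reads called 1, ND-51L1, and called 4.94% of all tested genes higher and 3.38% lower. In the authors' deposited table ND-51L1 was likewise the 1 gene of the 83 with an adjusted p under 0.05, where 4.03% of its genes were higher and 2.75% lower.

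The main subunits lay close to no difference. The median log2 difference of the 62 tested main subunits, sev14 minus control, was -0.04, beside 0.00 over all tested genes. It was within 0.25 of 0 for 57 of the 62, or 91.9%, beside 67.8% of tested genes whose mean reached 400 normalized counts. Medians were -0.03 for complex I, -0.03 for complex II, -0.09 for complex III, -0.02 for complex IV and -0.04 for ATP synthase. The 7 core subunits of complex I, which carry the electrons, had a median of 0.04, and the 26 tested accessory subunits one of -0.07. The median standard error was 0.15.

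A missed threshold does not show equal levels, so the 95% intervals of the differences were read as well. For 50 of the 62 main subunits the interval lay within a 1.5-fold difference in either direction. For 61 of the 62 it lay within a 2-fold difference, the exception being ND-15. In complex II, all 4 subunits lay within 1.5-fold, as did all 8 of complex IV, 9 of 11 in ATP synthase, 4 of 6 in complex III and 25 of 33 in complex I. The summed main subunits had 152190 ± 13262 normalized counts in sev14 and 157919 ± 13569 in control retinas (SD, n = 4 each).

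**Figure D2:**
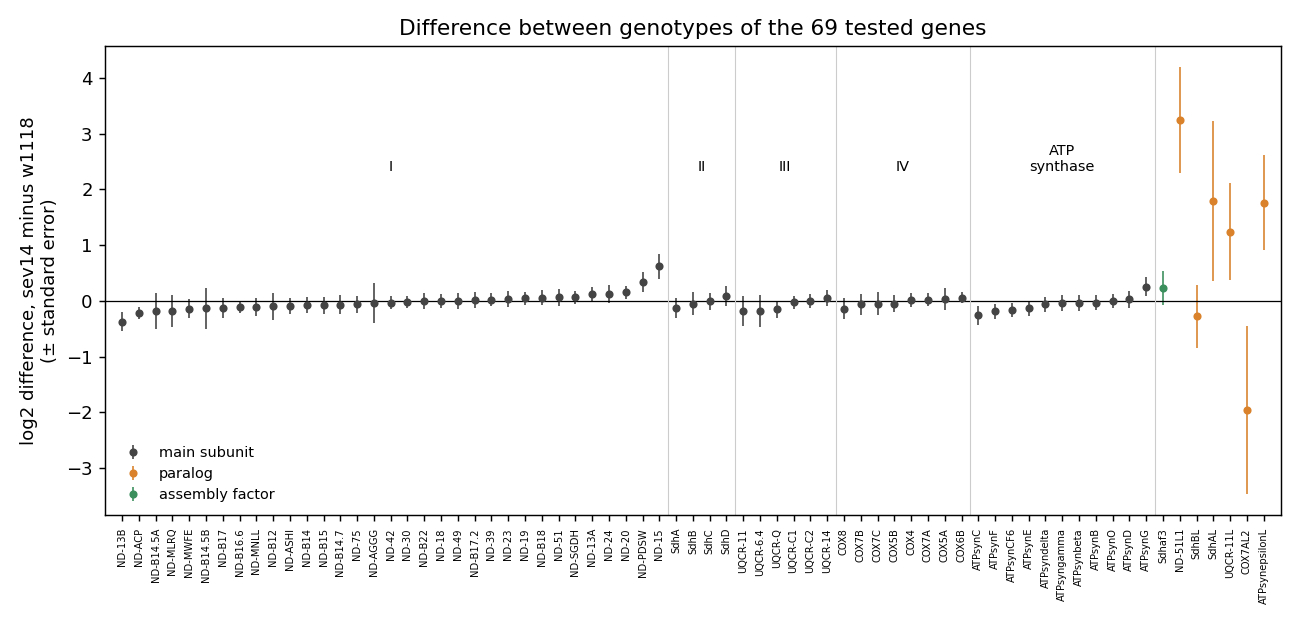
Log2 difference, sev14 minus w1118, of the 69 tested genes, with standard errors, ordered by complex and then by difference. Main subunits lie between -0.37 and 0.62, and the 6 tested paralogs on the right between -1.96 and 3.24 with wider errors.

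ND-15 (deposited as CG11455, 2L 114726 to 156030) is an accessory subunit of complex I and had the largest rise among main subunits. It had 1742, 1457, 1332 and 1102 normalized counts in S1, S2, S4 and S5, against 660, 1361, 784 and 939 in W1, W2, W5 and W6. The genotypes overlapped because W2 exceeded S4 and S5. The log2 difference was 0.62 ± 0.22 (SE) with a 95% interval of 0.12 to 1.12 and an adjusted p of 0.179 in limma. Leaving out 1 library at a time gave adjusted p-values of 0.0565, without W2, to 0.395, without W1. Of its 1135 exon bases, 178 are shared with Pus10 on the opposite strand, and the sources used here do not say whether counting used strand. Pus10 itself differed by -0.01 with an adjusted p of 0.990. No gene was called among the 30 tested genes within 100 kb of ND-15, beside 2.38% of all tested genes called higher and 1.82% lower.

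ND-PDSW, another accessory subunit of complex I, had 2626, 1979, 1709 and 2036 normalized counts in S1, S2, S4 and S5, against 1333, 2117, 1602 and 1551 in W1, W2, W5 and W6. Only W2 among the control libraries reached the range of the sev14 libraries, and the log2 difference was 0.34 ± 0.17 (SE, limma adjusted p = 0.368). ND-13B, also of complex I, had the largest fall in value, with 546, 571, 511 and 364 normalized counts in S1, S2, S4 and S5 against 538, 727, 649 and 646 in W1, W2, W5 and W6. W1 lay within the sev14 range, and the log2 difference was -0.37 ± 0.17 (SE, limma adjusted p = 0.308).

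ATPsynC had 13903, 13023, 17030 and 12309 normalized counts in S1, S2, S4 and S5, against 14868, 14477, 18718 and 19286 in W1, W2, W5 and W6. S4 stood with the higher control libraries, and the log2 difference of -0.26 ± 0.17 (SE) had an adjusted p of 0.525 in limma. These 4 genes have the largest differences among main subunits in each direction. They missed the threshold, and for each of them the genotypes overlapped. Among other subunits, all exon bases of ND-MNLL are shared with CG45089 on the same strand, and those of UQCR-14 with CG32576 on the opposite strand. In all, 16 of the 83 genes share at least 10% of their exon bases with another gene.

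Libraries of the same genotype differed in the level of the main subunits. Of the 62 tested main subunits, W2 was the highest of the 8 libraries for 22, S1 for 16 and W6 for 14, while W1 was the lowest for 24, S5 for 17 and S4 for 11. The complexes did not move as one. Complex IV had its highest medians in S1 and W2, at 0.28 and 0.35 above the mean of all libraries on the log2 scale, and stood at -0.13 in S4. Complex II had its highest in S4 and W6, at 0.32 and 0.34, and its lowest in S5 at -0.25 and W1 at -0.22. Values for all complexes were below 0 in S2, S5 and W1. The order of the libraries was looked at after these values had been seen.

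**Figure D3:**
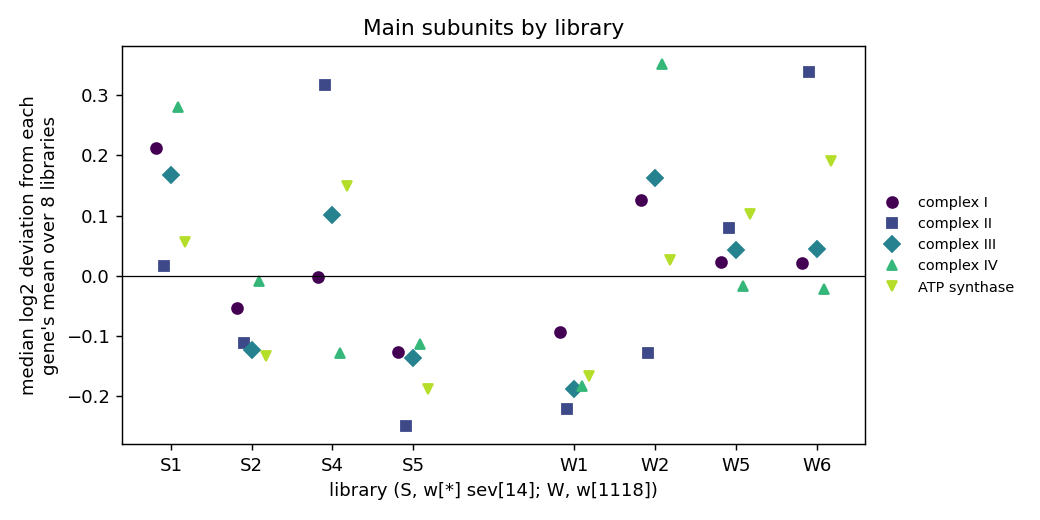
Median log2 deviation of the main subunits from each gene's mean over the 8 libraries, by complex, with the sev14 libraries on the left. Complex IV is highest in W2 (0.35) and S1 (0.28), and complex II in W6 (0.34) and S4 (0.32).

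In some libraries the deviations ran with the length of the transcript. ND-B14.5B, an accessory subunit of complex I with a shortest annotated transcript of 458 bases, had 2939, 2121, 1058 and 1931 normalized counts in S1, S2, S4 and S5, against 2164, 4003, 1592 and 1328 in W1, W2, W5 and W6. Its highest library, W2, was 3.78-fold above its lowest, S4, while the log2 difference between genotypes was -0.13 ± 0.37 (SE, limma adjusted p = 0.921). The other subunits with the widest ranges, ND-AGGG, ND-B14.5A, UQCR-6.4, UQCR-11, ND-MLRQ and ND-B12, also had W2 highest and S4 lowest, and their shortest transcripts are 324 to 512 bases long.

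Long subunits went the other way. SdhA, with a shortest transcript of 2617 bases, had 2421, 2521, 3549 and 2164 normalized counts in S1, S2, S4 and S5, against 2846, 2242, 2953 and 3470 in W1, W2, W5 and W6. S4 and W6 were its highest libraries. Over the 62 main subunits, 34 were higher in W2 than in W6, and 41 were higher in S1 than in S4, with 33 in both counts. The median shortest transcript was 542.5 bases for the first 34 and 895.5 bases for the rest, and 554 bases for the 41 and 1080 for the rest.

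Across the 62 main subunits, Spearman's rho between transcript length and deviation in a library was -0.73, -0.43, 0.69 and 0.22 in S1, S2, S4 and S5, against -0.16, -0.81, 0.41 and 0.68 in W1, W2, W5 and W6. They were smallest in size in W1 and S5, the libraries that were lowest for the most subunits. Subunits share the library and its depth and are not independent, so these correlations are a description without a test. Short transcripts of other genes moved with them: in S1, S4 and W2 the median deviation of the 27 main subunits under 600 bases was 0.28, -0.12 and 0.33, and that of 134 other protein-coding genes of such length, whose mean reached 400, was 0.32, -0.22 and 0.36. Over all lengths, rho of the other genes was -0.47 in S1, -0.13 in S4, -0.22 in W2 and -0.15 in W6. Of these 5054 genes, 2813 were 2 kb or longer, while among the subunits only ND-75 and SdhA were. Below 2 kb, medians of both sets rose with length in S4 and W6. Under 600 bases, from there to 1 kb and at 1 to 2 kb, the other genes stood at -0.22, 0.02 and 0.12 in S4. In W6 they stood at -0.13, 0.003 and 0.08. The subunits stood at -0.12, 0.06 and 0.19 in S4 and at -0.07, 0.12 and 0.20 in W6. The part of transcript length in the values of the subunits was not tested.

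**Figure D4:**
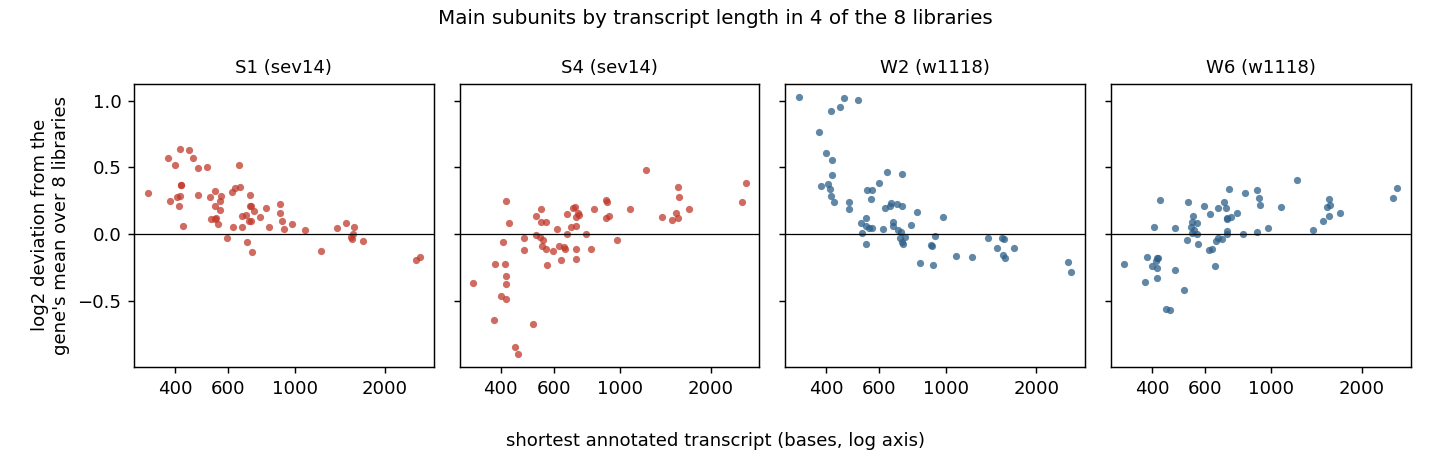
Log2 deviation of each main subunit from its mean over the 8 libraries, against the length of its shortest annotated transcript on a log axis, in 2 sev14 libraries (S1 and S4) and 2 control libraries (W2 and W6). Short subunits lie high in S1 and W2 and low in S4, with Spearman's rho of -0.73 in S1, 0.69 in S4, -0.81 in W2 and 0.68 in W6.

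Over all main subunits, the median coefficient of variation of normalized counts over 4 libraries was 14.48% in sev14 and 14.0% in control retinas, beside 16.5% and 13.9% for tested genes whose mean reached 400. In single subunits it ranged up to 38.5% in sev14 and 53.1% in control retinas.

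The 19 paralogs were a small part of the total. Their summed level was 0.0704% to 0.159% of that of the main subunits in sev14 and 0.0460% to 0.0857% in control retinas. In the recovered reads, 5 of them (COX5BL, COX6AL, ND-20L, ND-49L and SdhCL) had none in any library. With 70351656 reads in the sev14 libraries and 60110807 in the control libraries, a count of 0 allows a share of up to 4.26e-06% and 4.99e-06% of the reads. These limits take 3 reads as the floor and cover counting error only, not the assignment of reads between genes. All 647 exon bases of COX5BL are shared with Trmt6 on the opposite strand, and whether counting used strand is not stated. Only ATPsynepsilonL and SdhBL had reads in all 8 libraries, and 6 paralogs passed the minimum mean. Per kb of exon, no paralog exceeded 3.47% of its main subunit in any library. That value, of UQCR-11L in S4, rests on 1613 annotated exon bases of UQCR-11. The shortest transcript of UQCR-11 has 416 bases, so these percentages also depend on the length used.

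ND-51L1 (deposited as CG11423, 2R 17595267 to 17597409) is a paralog of ND-51, the core subunit of complex I that binds NADH. It had 26.9, 95.3, 5.72 and 63.0 normalized counts in S1, S2, S4 and S5, against 0, 3.01, 4.48 and 5.55 in W1, W2, W5 and W6. These came from 25, 91, 7 and 66 reads in the sev14 libraries, against 0, 3, 4 and 5 in the control libraries. All sev14 libraries were above all control libraries, but S4 exceeded W6 by little, and among the sev14 libraries S2 and S5 were high and S4 was low. It was the only one of the 69 tested genes whose genotypes did not overlap, beside 5.92% of all tested genes higher without overlap and 5.18% lower.

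The log2 difference of ND-51L1 was 3.24 ± 0.95 (SE), with a 95% interval of 1.13 to 5.36 and an adjusted p of 0.0972 in limma. Leaving out S4 gave 4.00 with an adjusted p of 0.0308, in a fit that called 2.45% of all tested genes higher and 1.61% lower, and the adjusted p was 0.121 to 0.230 without any other single library. DESeq2 gave 3.89 with an adjusted p of 0.00223 and edgeR 3.82 with 0.0880, and the authors' deposited table gives 3.90 with an adjusted p of 0.00118. Without W6 and S4 the difference was 4.31 with an adjusted p of 0.0448, where 1.52% of genes were called higher and 1.03% lower, and a replicate block on the same libraries called 1.92% higher and 1.28% lower, ND-51L1 included. Without S2 and S5 the difference was 1.98 with an adjusted p of 0.487. The order of the sev14 libraries in ND-51L1 was also their order in the share of ribosomal RNA pseudogenes, which was 2.94%, 12.5%, 0.528% and 10.1% in S1, S2, S4 and S5, and the part of that share in the result was not tested.

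ND-51 itself had 2219, 2260, 2916 and 2030 normalized counts in S1, S2, S4 and S5, against 1873, 2050, 2363 and 2735 in W1, W2, W5 and W6. Its log2 difference was 0.06 ± 0.16 (SE, limma adjusted p = 0.903). Per kb, ND-51L1 stood at 0.898%, 3.13%, 0.146% and 2.30% of ND-51 in S1, S2, S4 and S5, against 0%, 0.109%, 0.141% and 0.150% in W1, W2, W5 and W6. By this ratio the genotypes overlapped, since S4 lay below W6. No gene was called among the 39 tested genes within 100 kb of ND-51L1, beside 2.38% of all tested genes called higher and 1.82% lower. A second paralog of the same subunit, ND-51L2, had 2, 4, 0 and 5 reads in the sev14 libraries and 0, 1, 6 and 0 in the control libraries.

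ATPsynepsilonL (deposited as CG31477) is a paralog of sun, the epsilon subunit of ATP synthase, and was the most abundant paralog per kb. It had 74.2, 74.3, 61.3 and 60.1 normalized counts in S1, S2, S4 and S5, against 1.77, 82.4, 32.5 and 20.0 in W1, W2, W5 and W6. The sev14 libraries lay close together, while the control libraries spread widely and W2 exceeded all others. Its log2 difference was 1.76 ± 0.86 (SE, limma adjusted p = 0.343). Without W1 it was 0.81, and edgeR gave 0.96 and DESeq2 0.98. Per kb it stood at 2.05% to 3.33% of sun in sev14, and at 0.0698% to 2.00% in control retinas.

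SdhAL and SdhBL are paralogs of the succinate-oxidising subunits. SdhAL had 24 reads in S2 and 24 in S5, the libraries with the largest share of ribosomal RNA pseudogenes, and 0 in S1 and S4, against 3 reads in W5 and 0 in the other control libraries. SdhBL had 8, 16, 28 and 23 reads in S1, S2, S4 and S5, against 34, 8, 17 and 31 in W1, W2, W5 and W6. Log2 differences were 1.79 ± 1.44 for SdhAL and -0.27 ± 0.57 for SdhBL (SE, limma adjusted p = 0.614 and 0.879). For SdhAL edgeR gave 3.69 and DESeq2 3.86, neither with an adjusted p under 0.360, and without S2 or without S5 it fell below the minimum mean. SdhBL ranged from -0.68, without W2, to 0.01, without S1.

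**Figure D5:**
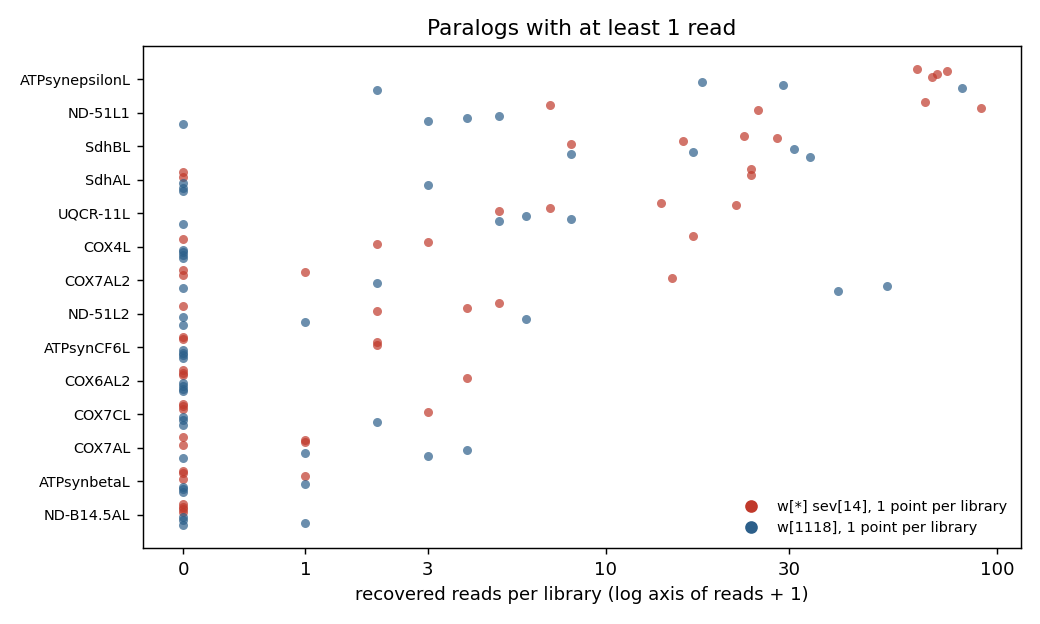
Recovered reads of the 14 paralogs with at least 1 read, 1 point per library, on a log axis of reads + 1, with w[*] sev[14] above w[1118] in each row. ND-51L1 has 7 to 91 reads in sev14 and 0 to 5 in w1118 libraries; the genotypes overlap in the other rows.

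Among paralogs of complexes III and IV, UQCR-11L had 5, 7, 22 and 14 reads in S1, S2, S4 and S5, against 0, 5, 8 and 6 in W1, W2, W5 and W6. COX7AL2 had 15, 0, 1 and 0 reads in the sev14 libraries, against 40, 0, 53 and 2 in the control libraries. Most of its reads thus lay in W1 and W5. Log2 differences were 1.24 ± 0.87 for UQCR-11L and -1.96 ± 1.504 for COX7AL2 (SE, limma adjusted p = 0.555 and 0.597). Without W1 the difference of UQCR-11L was 0.51, and that of COX7AL2 ranged from -3.02, without W2, to -1.05, without W5. COX4L had 2, 3, 0 and 17 reads in S1, S2, S4 and S5 and none in the control libraries, and was not tested.

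The remaining paralogs had 10 reads or fewer in all. COX7AL had 2 reads in sev14 and 8 in control libraries, COX7CL 3 and 2, ATPsynCF6L 4 and 0, COX6AL2 4 and 0, ATPsynbetaL 1 and 1, and ND-B14.5AL 0 and 1. Of 13 matched markers of the testis, all but mia were low in these female retinas, and ProtB, dj and nht were at 0 in every library. The exception, mia, passed the minimum mean. It had 81.7, 47.1, 54.8 and 79.2 normalized counts in S1, S2, S4 and S5, against 42.5, 47.2, 16.8 and 82.1 in W1, W2, W5 and W6. Without mia the summed testis markers were 7.36 to 14.66 normalized counts in sev14 and 5.60 to 16.1 in control retinas. By gene structure, 4 of the 19 paralogs have a single exon (21.1%) and 0 of the 63 main subunits, beside 1886 of 13005 protein-coding genes, and 1 paralog and 12 main subunits lie on the X chromosome.

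Other genes of the same machinery were listed by function, and their counts stand beside the 2.38% of all tested genes called higher and 1.82% called lower. Among 10 subunits and cytochromes c under other symbols, 1 was higher and 0 were lower. The called gene was Cyt-c-p, the cytochrome c that carries electrons to complex IV, with 829, 846, 730 and 680 normalized counts in S1, S2, S4 and S5 against 480, 555, 413 and 351 in W1, W2, W5 and W6. The genotypes did not overlap, and the log2 difference was 0.79 ± 0.16 (SE, limma adjusted p = 0.0234). Leaving out S1, S2, W5 or W6 gave adjusted p-values above 0.05, up to 0.0781. The list's other 9 members include blw (-0.19), the alpha subunit of ATP synthase, and RFeSP (0.11), the iron-sulphur protein of complex III.

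Among 7 tested carriers of the mitochondrial membranes, 1 was higher and 0 were lower. This was Ant2, which exchanges ADP and ATP, with 461, 439, 467 and 443 normalized counts in S1, S2, S4 and S5 against 267, 298, 276 and 284 in W1, W2, W5 and W6. The genotypes were well apart at a log2 difference of 0.68 ± 0.13 (SE, limma adjusted p = 0.0138). Its close relative sesB, far more abundant, differed by -0.13 ± 0.15 (SE, limma adjusted p = 0.761). Among 73 proteins of the mitochondrial ribosome, 1 was higher and 0 were lower. This was mRpL20, with 608, 479, 504 and 491 normalized counts in libraries S1, S2, S4 and S5 of sev14, against 261, 343, 289 and 244 in W1, W2, W5 and W6, and a log2 difference of 0.88 ± 0.16 (SE, limma adjusted p = 0.0115). Median log2 differences of fat body and tracheal markers were 0.64 and 1.61. For 7 glial markers the median was -0.22, with 5 below 0 and 2 above. Of the glial markers Mdr65 was called lower (-0.69, limma adjusted p = 0.0426), while alrm (0.75) and nrv2 (0.53) were above 0 and not called. The part of these tissue markers in the differences of Cyt-c-p, Ant2 and mRpL20 was not tested.

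No gene was called in either direction among 10 assembly factors, 14 genes of pyruvate dehydrogenase and the citric acid cycle, 13 genes of mitochondrial biogenesis, 12 of glycolysis and 7 of oxidant defence, beside the same 2.38% and 1.82% of all tested genes. Among assembly factors the largest log2 differences were -0.38 for Cox11 and -0.23 for CIA30. In the citric acid cycle they were 0.51 for Ogdh (limma adjusted p = 0.0641) and -0.28 for kdn, the citrate synthase. Trx2 (0.74, adjusted p = 0.0576) and Cat (0.32) led the list of oxidant defence, mtDNA-helicase (0.35) and PolG1 (-0.32) that of biogenesis, and Ldh (0.69) and Eno (-0.54) that of glycolysis. Of these, DESeq2 called Ogdh (adjusted p = 0.0151) and Trx2 (adjusted p = 0.00300), where it called 4.94% of all tested genes higher and 3.38% lower.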

How the data were processed

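HISAT2 2.0.3 and RSEM 1.2.31 are named in the submitters' processing notes, as are DESeq2 1.32.0, cutadapt 1.9.1 and FastQC 0.11.4 and the builds dm6 and BDGP6. The deposited signal per gene and library is a normalized count, a count that the authors divided by 1 factor per library. The deposited log2 fold change, score and adjusted p-value per gene were used only for comparison. At least 99.98% of the values above 0 in each library were whole multiples of 1 read, within 0.05 reads, and these reads were used for edgeR 4.0.16 and DESeq2 1.42.0. RSEM estimates can split reads between paralogs. Columns were assigned to genotypes by their names, and library numbers are those of the columns.

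Genes whose mean reached 5 normalized counts entered the test, limma 3.58.1 under R 4.3.3 (intensity trend, 2-sided), on log2(normalized count + 1). On this scale differences of low genes can come out smaller or larger than in DESeq2. They were smaller in size for ND-51L1 (3.24 against 3.89), SdhAL (1.79 against 3.86), SdhBL and COX7AL2. They were larger for ATPsynepsilonL (1.76 against 0.98) and UQCR-11L (1.24 against 1.11). Benjamini-Hochberg adjustment covered all 10192 genes. The test was tested on simulated data, where only genes with a mean of at least 20 were changed and all genes had the same dispersion. That does not cover the paralogs, which are lower or more variable. Lengths come from the Ensembl annotation of BDGP6, where 98.6% of matched genes had the deposited coordinates. Python 3.11.15 was used for tables and drawing.

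The genes, lists and tests were chosen with earlier results of these data known. Genes were named when called or with an unadjusted p under 0.05. Also named were all paralogs, the highest and lowest main subunit per kb of each complex, the 2 largest rises and 2 largest falls, and from each list the called genes or the 2 largest changes. ND-ASHI, ND-51, ATPsynbeta, the subunits named for their range between libraries, sesB, blw and RFeSP were chosen after their values were seen. Of 161 list entries, 7 were not matched. Alternatives were TMM and total-read scaling, pseudocounts of 0.5 and 5, no filter or a minimum mean of 20, array weights, a replicate block and leaving out each library. Fits without S2 and S5, and without both S4 and W6, were chosen after seeing the data.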

Additional observations from a re-analysis of the deposited data

Results flagged for a closer look

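Of 48 groups of 4 libraries examined, 3 held a library far from the others, where chance flags about 1 in 20 groups of normally distributed values. That rate does not apply to groups with most values at or near 0, as for COX7AL2 and SdhAL below. COX7B stood at 3393 normalized counts in W2, against 2203 to 2391 in the other control libraries. COX7AL2 stood at 16.1 normalized counts in S1, against 0 to 0.818 in the other sev14 libraries. SdhAL stood at 3.36 normalized counts in W5 and at 0 in the other control libraries, a difference of 3 reads.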

How the results depend on the processing

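No alternative called a gene of the respiratory chain or ATP synthase lower. The count called higher was 1 instead of 0, always ND-51L1, with DESeq2, with the replicate block, without S4, and without W6 and S4 together. The median log2 difference of main subunits was -0.18 with total-read scaling, which moved the median of all genes to -0.14, and -0.09 to 0.02 on leaving out 1 library. That of tested paralogs was 1.504, 0.63 without a filter and 0.66 (without W1) to 1.81 on leaving out 1 library. This median depends on the filter, because some paralogs reached the minimum mean only through their higher genotype. Those were ND-51L1 (means of 47.7 in sev14 and 3.26 in control retinas), SdhAL (12.0 and 0.840) and COX7AL2 (4.23 and 24.3). Over all genes, 243 were called higher and 186 lower. DESeq2 called 503 and 344, leaving out 1 library 137 to 251 and 111 to 189, and leaving out W6 and S4 156 and 106, while 145 were higher without S2 and S5.

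Small differences changed sign. With total-read scaling SdhD was at -0.0498 and COX4 at -0.128, and with array weights COX7B was at 0.0359 and COX4 at -0.00608. Without S2 and S5, SdhA was at 0.0439, UQCR-C1 at 0.0458, ATPsyndelta at 0.0741 and CIA30 at 0.0371. On leaving out 1 library the range was -0.682 to 0.0146 for SdhBL, -0.0448 to 0.0821 for COX4, -0.0749 to 0.0137 for UQCR-C1, -0.400 to 0.0460 for ND-MLRQ, -0.191 to 0.0801 for COX7B and -0.0490 to 0.218 for SdhD. The cause was not tested. Cyt-c-p and Ant2 missed the threshold with total-read scaling (adjusted p = 0.0662 and 0.0725 in limma), and Cyt-c-p, Ant2 and mRpL20 missed it without W6 and S4, without S2 and S5 and with the block.

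Column numbers 1, 2 and 5 are shared by the genotypes. Deviations of same-numbered libraries from their genotype means correlated at 0.09, 0.19 and 0.06, so the numbers were not taken to pair the libraries. Among all pairs across the genotypes the highest correlation was 0.39, for S4 and W6, and the lowest -0.33, for S2 and W6. A replicate block on these 6 libraries gave ND-51L1 a log2 difference of 4.31 (adjusted p = 0.0293 in limma). Reads limit the paralogs: 13 of 19 fell below the minimum mean.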

Other observations

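The genes mtTFB1, of mitochondrial biogenesis, and Ccdc56, an assembly factor of complex IV, have the same values in every library (617, 553, 587 and 641 normalized counts in S1, S2, S4 and S5, against 531, 671, 605 and 550 in W1, W2, W5 and W6), so the lists that hold them share 1 set of values. Sdhaf3, the assembly factor of complex II, had 185, 142, 120 and 137 normalized counts in S1, S2, S4 and S5, against 102, 225, 106 and 91.0 in W1, W2, W5 and W6. W2 was its highest library, and the log2 difference was 0.24 ± 0.31 (SE, limma adjusted p = 0.785). Cyt-c-d, the second cytochrome c, was low at 7.52, 1.05, 14.72 and 0 normalized counts in S1, S2, S4 and S5, against 13.3, 6.03, 6.72 and 8.88 in W1, W2, W5 and W6 (limma adjusted p = 0.613).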
